A study of Mus musculus with 2 samples.

Results

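The genes described here are 52 mitosis and spindle genes, taken by symbol from the 32285 genes of 2 single-cell RNA-seq count matrices of mouse bone marrow. Each of the 52 had at least 1 unique molecular identifier (UMI, one counted RNA molecule) in both libraries. The study asked how the kinase MAP4K4 acts in neutrophil formation, and sequenced 1 library from a control (Ctrl) and 1 library from *Map4k4*-cKO (cKO) marrow on a droplet 3′ platform. Before loading, c-Kit+ progenitors, drawn from marrow, and red-cell-lysed total marrow were mixed at 2 parts to 3.

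The cKO mice carried floxed *Map4k4* alleles with Mx1-Cre, a Cre transgene that interferon switches on in blood-forming cells and in other tissues that respond to interferon. The control is written in the methods as Mx1-Cre+ with *Map4k4*-/-, read here as Mx1-Cre+ mice without floxed alleles. Both groups were littermates on a C57BL/6 background, 13 to 14 weeks old. The methods state poly I:C, which induces Cre, for the floxed mice, and whether the control mice received it is not given in the sources used here. How many animals went into each library is not given in the sources used here. With 1 library per group there is no replicate check and no test of genotype. Each 95% interval (exact Poisson, Clopper-Pearson or the exact binomial interval of a pair of sums) covers counting error only.

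Mitosis is driven by the cyclin-dependent kinase Cdk1 bound to A- and B-type cyclins, while kinesins and spindle proteins build the spindle and kinetochores tie chromosomes to it. A checkpoint holds anaphase back until each chromosome is attached, after which the anaphase promoting complex destroys securin and cyclin B and the cell divides. In neutrophil formation, division is known to go on in the granule-making precursors, called promyelocytes and myelocytes by shape and ProNeu and PreNeu in single-cell work, and to stop before the immature (imNeu) and mature (mNeu) neutrophil.

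The matrices held 10220 Ctrl and 6872 cKO barcodes with 71527701 and 64393950 UMIs. Filters on detected genes and mitochondrial UMIs left 9965 and 6718 cells, with a median of 4111 and 6243.5 UMIs. Classes were gated on marker genes, none of them a member, which placed 8282 and 4759 cells and left 1683 and 1959 without a class. Of the cells without a class, 1170 and 1371 had under 1000 UMIs. The libraries shared 3010 barcode strings, and cells with the same string correlated no better (median 0.451) than cells paired with the next string (0.454). *Map4k4* itself had 5176 UMIs in the Ctrl and 4132 in the cKO library. Its level was 135 UMIs per 1000000 of the class (CPM) in HSC/MPP of the library labelled Ctrl and 134 in that labelled cKO. It was 131 and 111 CPM in mNeu, so that the counts of the targeted gene separate the libraries little. The counted 3′ reads need not lie in the deleted part, and cKO below stands for the library labelled cKO.

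The 52 genes took 0.601% of all UMIs in the Ctrl and 0.414% in the cKO library. Along the neutrophil path their share was level through the progenitors, highest in PreNeu, and several times lower in imNeu and mNeu. In Ctrl it was 0.531% in HSC/MPP (stem and multipotent progenitor cells), 0.543% in GMP (granulocyte-monocyte progenitors) and 0.528% in ProNeu. It was then 0.657% in early PreNeu, which still held primary granule transcripts, and 0.692% in late PreNeu. It was 0.160% in imNeu, 0.0947% in cells between imNeu and mNeu, and 0.0974% in mNeu. In cKO the shares from HSC/MPP to late PreNeu were 0.414%, 0.470%, 0.433%, 0.596% and 0.587%, with early PreNeu the highest. The later shares were 0.0899%, 0.0424% and 0.0428%. The plot of shares by class shows that the drop between late PreNeu and imNeu was the largest step of the path in both libraries.

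**Figure D1:**
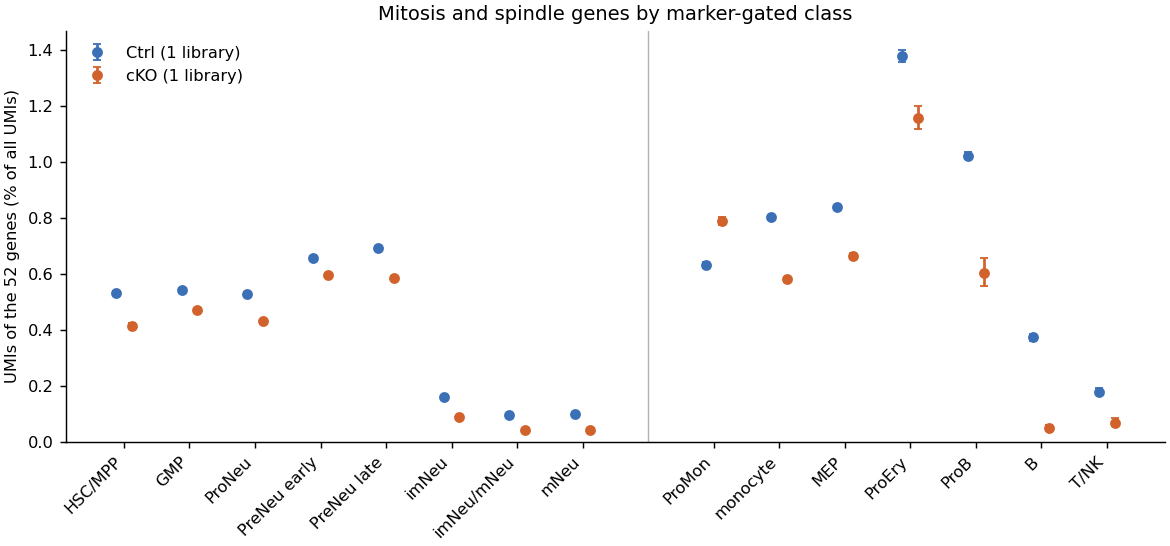
Share of all UMIs taken by the 52 genes (y axis, percent) in each marker-gated class (x axis), with 1 point per library and 95% counting intervals. PreNeu late holds 0.692% in Ctrl and 0.587% in cKO, against 0.0974% and 0.0428% in mNeu.

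Set against mNeu of the same library, the PreNeu share (early and late cells together) was 7.02-fold higher in Ctrl, with a counting interval from 6.78 to 7.27. The gates used neither a member nor a DNA replication gene, so no member count entered the gating. The gate thresholds were set after the marker shares had been seen, and PreNeu is a stage known to divide. On the neutrophil path, late PreNeu was the class of highest CPM for 33 of the 52 members in Ctrl and 24 in cKO. Early PreNeu was it for 8 and 13 members, and no member peaked in imNeu. For 33 of 52 members the class of highest CPM was the same in both libraries. Here and below, the highest class of a member is that within this path, and some classes off it held larger member shares.

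A share of UMIs can rise because more cells carry the RNA or because each carries more, so cells were also compared at equal depth, each thinned to 2000 UMIs. In ProNeu, 91.3% of Ctrl and 90.4% of cKO cells had 3 or more member UMIs. In PreNeu the values were 72.0% (69.9 to 73.9) and 67.9% (65.2 to 70.5). In imNeu they were 24.1% and 6.35%, and in mNeu 26.8% and 7.57%. The thinning left out 120 Ctrl and 173 cKO PreNeu cells and 519 and 36 mNeu cells. Without thinning, 88.2% and 89.96% of PreNeu cells had 3 or more, at a median depth of 7766 UMIs in Ctrl and 14343 in cKO.

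Low member counts were also found in T and NK cells, most of which are known not to divide in marrow. At the same depth 48.4% of Ctrl and 23.8% of cKO cells of this type had 3 or more member UMIs, at median depths of 3066 and 5978.5 before thinning. *Smc4* alone stood at 304 CPM in Ctrl T and NK cells against 63.1 in mNeu, and how much of these counts is the cells' own RNA was not tested. The shares in imNeu and mNeu lay below these values in both libraries, so no expression is read from a level of 3 UMIs there. A floor of 10 member UMIs set the classes further apart. It was reached by 49.3% of Ctrl and 50.1% of cKO PreNeu cells, against 0.13% and 0.22% of mNeu cells and 3.23% and 0% of T and NK cells. The cKO value rests on 0 of 21 cells, which allows a share of up to 16.1% by its Clopper-Pearson interval.

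Counted by that floor, 27.4% of Ctrl and 20.8% of cKO HSC/MPP cells were positive. The values were 38.3% and 40.2% in GMP, 46.5% and 34.4% in ProNeu, 53.4% and 61.3% in early PreNeu, and 48.6% and 47.6% in late PreNeu. In imNeu 4.02% (2.54 to 6.03) and 3.07% (1.73 to 5.02) remained. The histograms of member UMIs per cell show early and late PreNeu differing in shape. In early PreNeu nearly all cells deep enough for thinning held some member RNA, with a median of 11 and 12 member UMIs per 2000. These were 277 of 340 Ctrl but only 222 of 366 cKO early PreNeu cells, the shallower ones being left out. In late PreNeu cells fell apart into a group near 0 and a group above 10, with a median of 9 and 8.

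**Figure D2:**
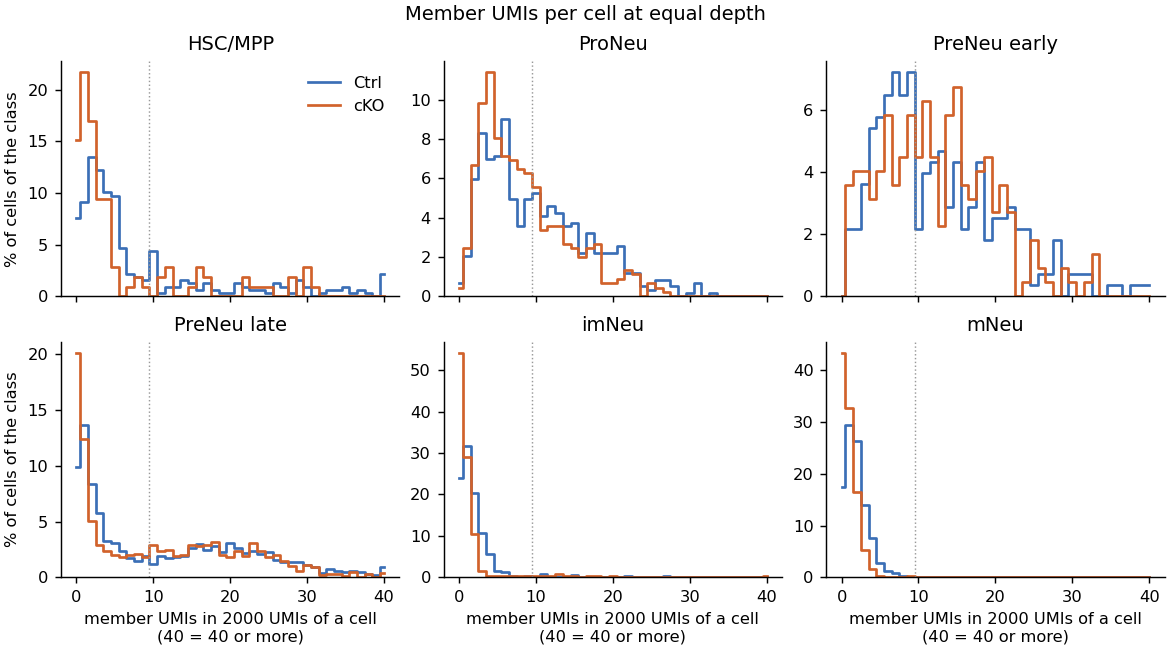
Member UMIs in 2000 UMIs of a cell (x axis, the last step holding all cells at 40 or more) against the percent of cells of the class (y axis), for 1 library per line, with the floor of 10 dotted. PreNeu late has cells near 0 and above 10, while mNeu has 0.13% and 0.22% of cells at 10 or more.

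The step out of member expression can be placed on *Ltf*, the lactoferrin gene of secondary granules, known to rise through PreNeu. PreNeu and imNeu cells were ordered by the share of *Ltf* in their own UMIs. In Ctrl the member share was 0.716% below 0.1% *Ltf*, 0.781% from 0.5 to 1%, 0.718% from 1 to 1.5%, 0.362% from 1.5 to 2% and 0.139% from 2% up. In cKO it was 0.623%, 0.716%, 0.568%, 0.204% and 0.0475% in the same steps. The share of cells at 10 or more member UMIs went from 58.2% to 49.7%, 21.0% and 4.30% in Ctrl at below 0.1%, 1 to 1.5%, 1.5 to 2% and 2% up. In cKO it went from 65.4% to 40.7%, 12.4% and 2.96%. The last step rests on 11 Ctrl and 5 cKO cells past the floor. *Ltf* is one of the markers behind the PreNeu and imNeu gates, and the cKO cells of the 0.1 to 0.5% step were shallow, with a median of 1840.5 UMIs before thinning.

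**Figure D3:**
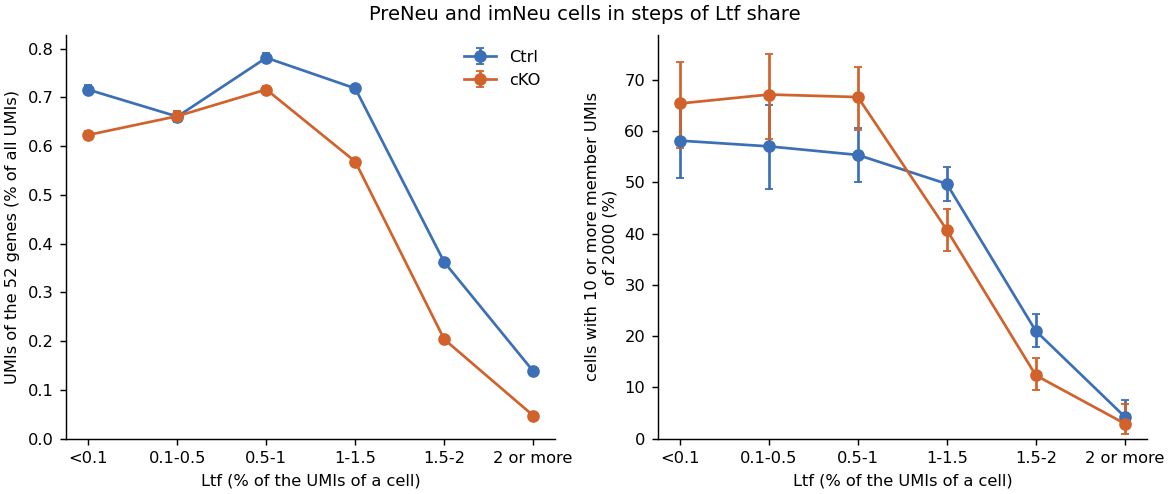
PreNeu and imNeu cells in steps of the *Ltf* share of a cell (x axis, percent of its UMIs) against the member share (left, percent of UMIs) and the percent of cells with 10 or more member UMIs of 2000 (right), with 95% counting intervals and 1 line per library. Both measures drop between 1 to 1.5% and 2% *Ltf*, from 49.7% to 4.30% of cells in Ctrl and from 40.7% to 2.96% in cKO.

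The 53 DNA replication genes (helicase, polymerase and nucleotide synthesis genes) left earlier on the same axis. Their share was 0.532% of Ctrl UMIs below 0.1% *Ltf* and 0.317% from 0.5 to 1%, where the member share was at its highest. In cKO the same values were 0.454% and 0.315%. At 3 UMIs of each list in 2000, 87.4% of Ctrl and 87.9% of cKO ProNeu cells held both. In late PreNeu 46.9% and 40.2% held both, 21.2% and 22.3% held members only, and 25.1% and 34.4% held neither. At this floor 18.8% of Ctrl and 7.03% of cKO mNeu cells and 14.0% of Ctrl T and NK cells also held members only. The members-only share of Ctrl late PreNeu thus lay near that of mNeu, and no state of the cells is read from it. HSC/MPP ran the other way from late PreNeu, with 24.8% of Ctrl and 35.8% of cKO cells holding replication UMIs only. In Ctrl 34.4% of T and NK cells and 29.9% of B cells did too, so this was not particular to HSC/MPP.

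What the members share beyond their roles was looked for in their promoters, since genes of this phase of the cycle are known to carry CCAAT boxes, bound by NF-Y, and the cell cycle homology region TTTGAA or TTCGAA, bound by the MuvB complex. RefSeq promoters (GRCm38.p6, 250 bases before to 50 after the start) were at hand for 43 of the 52, leaving *Aurkb*, *Ccna2*, *Cdc25c*, *Incenp*, *Kif20a*, *Pimreg*, *Smc4*, *Spc24* and *Tpx2*. The letters CCAAT, read on both strands (ATTGG on the other), were in 33 of 43 (76.7%) against 41.1% of 27025 promoters of all genes. At least 2 of them were in 53.5% against 13.3%. TTTGAA or TTCGAA, also read on both strands (TTCAAA and TTCGAA), were in 34 of 43 (79.1%) against 21.7%. In 30 members (69.8%) such a match was centred within 50 bases of the start, against 6.35% of all promoters. Both kinds of motif were in 69.8% of members and 8.61% of all promoters.

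The promoters printed are those with the most matches (*Top2a* 10, *Ube2c* 7, *Hmmr* and *Cks1b* 6 each) and that of *Pttg1*, as one of those with none. *Birc5*, *Mad2l1*, *Nuf2*, *Nusap1* and *Tacc3* also had none. The *Pttg1* stretch lies wholly inside the gene as annotated in GENCODE vM21 (chr11:43420250-43426251, minus). Bases before that annotated start were thus not searched for *Pttg1*. Capitals mark the motif letters on either strand. In *Ube2c* a pair of CCAAT matches on opposite strands overlaps, and 2 members had such overlaps. *Top2a* lies at chr11:99024140-99024439 (minus strand), *Ube2c* at chr2:164769679-164769978 (plus), *Hmmr* at chr11:40733388-40733687 (minus), *Cks1b* at chr3:89418242-89418541 (minus) and *Pttg1* at chr11:43425932-43426231 (minus).
Top2a: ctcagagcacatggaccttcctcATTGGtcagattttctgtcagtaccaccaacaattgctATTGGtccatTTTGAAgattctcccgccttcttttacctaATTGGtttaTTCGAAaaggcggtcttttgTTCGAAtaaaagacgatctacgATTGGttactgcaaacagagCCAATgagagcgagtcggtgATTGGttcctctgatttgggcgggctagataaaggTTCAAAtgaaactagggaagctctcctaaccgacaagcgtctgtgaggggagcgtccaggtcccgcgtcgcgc
Ube2c: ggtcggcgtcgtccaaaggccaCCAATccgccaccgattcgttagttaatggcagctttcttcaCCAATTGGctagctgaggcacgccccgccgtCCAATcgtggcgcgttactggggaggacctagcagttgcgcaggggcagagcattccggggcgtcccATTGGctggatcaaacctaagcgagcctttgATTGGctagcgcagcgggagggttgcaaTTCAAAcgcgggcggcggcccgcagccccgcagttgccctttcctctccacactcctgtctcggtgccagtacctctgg
Hmmr: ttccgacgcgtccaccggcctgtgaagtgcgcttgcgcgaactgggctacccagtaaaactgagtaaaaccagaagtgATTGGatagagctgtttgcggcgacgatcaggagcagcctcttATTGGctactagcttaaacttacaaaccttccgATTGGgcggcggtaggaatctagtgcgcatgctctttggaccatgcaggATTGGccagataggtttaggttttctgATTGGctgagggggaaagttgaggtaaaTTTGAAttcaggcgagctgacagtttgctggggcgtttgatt
Cks1b: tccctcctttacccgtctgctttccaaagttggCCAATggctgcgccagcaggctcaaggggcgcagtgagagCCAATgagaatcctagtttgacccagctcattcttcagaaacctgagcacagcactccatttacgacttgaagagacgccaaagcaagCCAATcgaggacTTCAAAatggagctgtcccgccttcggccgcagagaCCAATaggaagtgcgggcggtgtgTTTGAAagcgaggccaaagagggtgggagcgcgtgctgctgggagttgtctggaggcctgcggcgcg
Pttg1: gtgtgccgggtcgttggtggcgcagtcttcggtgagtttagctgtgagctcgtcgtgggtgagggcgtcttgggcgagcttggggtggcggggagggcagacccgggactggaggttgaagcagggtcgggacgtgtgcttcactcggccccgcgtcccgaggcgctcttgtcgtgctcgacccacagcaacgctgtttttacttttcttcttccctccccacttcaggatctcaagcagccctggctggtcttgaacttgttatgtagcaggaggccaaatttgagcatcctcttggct
A match is a description of the letters, not a bound site. Among the classes of the neutrophil path, the 4 motif-rich genes were 9.99-fold to 14-fold higher in their highest class than in mNeu of Ctrl. Of the 6 without a match in the bases searched, *Pttg1* was highest in mNeu itself among these classes. The other 5 were 7.23-fold to 12.4-fold higher in their highest class. For *Pttg1* the bases searched lay inside the annotated gene, so nothing is read from their lack of a match.

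Each member was set against its own level in mNeu, as in the map of members by class. The fold between the path class of highest CPM and mNeu had a median of 9.69 in Ctrl and 29.8 in cKO. Most of these folds divide by mNeu levels from which no expression is read. What part background or depth has in their size, and in its difference between the libraries, was not tested. The largest in Ctrl were *Pimreg*, a mitotic regulator, at 31.4-fold (12.2 to 116), and the kinesin *Kif20b* at 20.03-fold. *Cdkn3*, a phosphatase that acts on Cdk proteins, followed at 17.8-fold, and the kinesins *Kif2c* and *Kif11* at 15.7-fold and 15.2-fold. In cKO *Kif20b* stood at 164-fold on 3 mNeu UMIs, with an interval from 55.2 to 800. The outer kinetochore gene *Ndc80* (60.8-fold), *Cks1b* (54.3-fold), *Ckap2* (53.2-fold) and *Kif20a* (46.1-fold) came next. *Cdc25c*, a phosphatase that switches Cdk1 on, had 0 UMIs in cKO mNeu. Its peak was 33.6-fold higher than the level that 3 UMIs would give in that class.

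**Figure D4:**
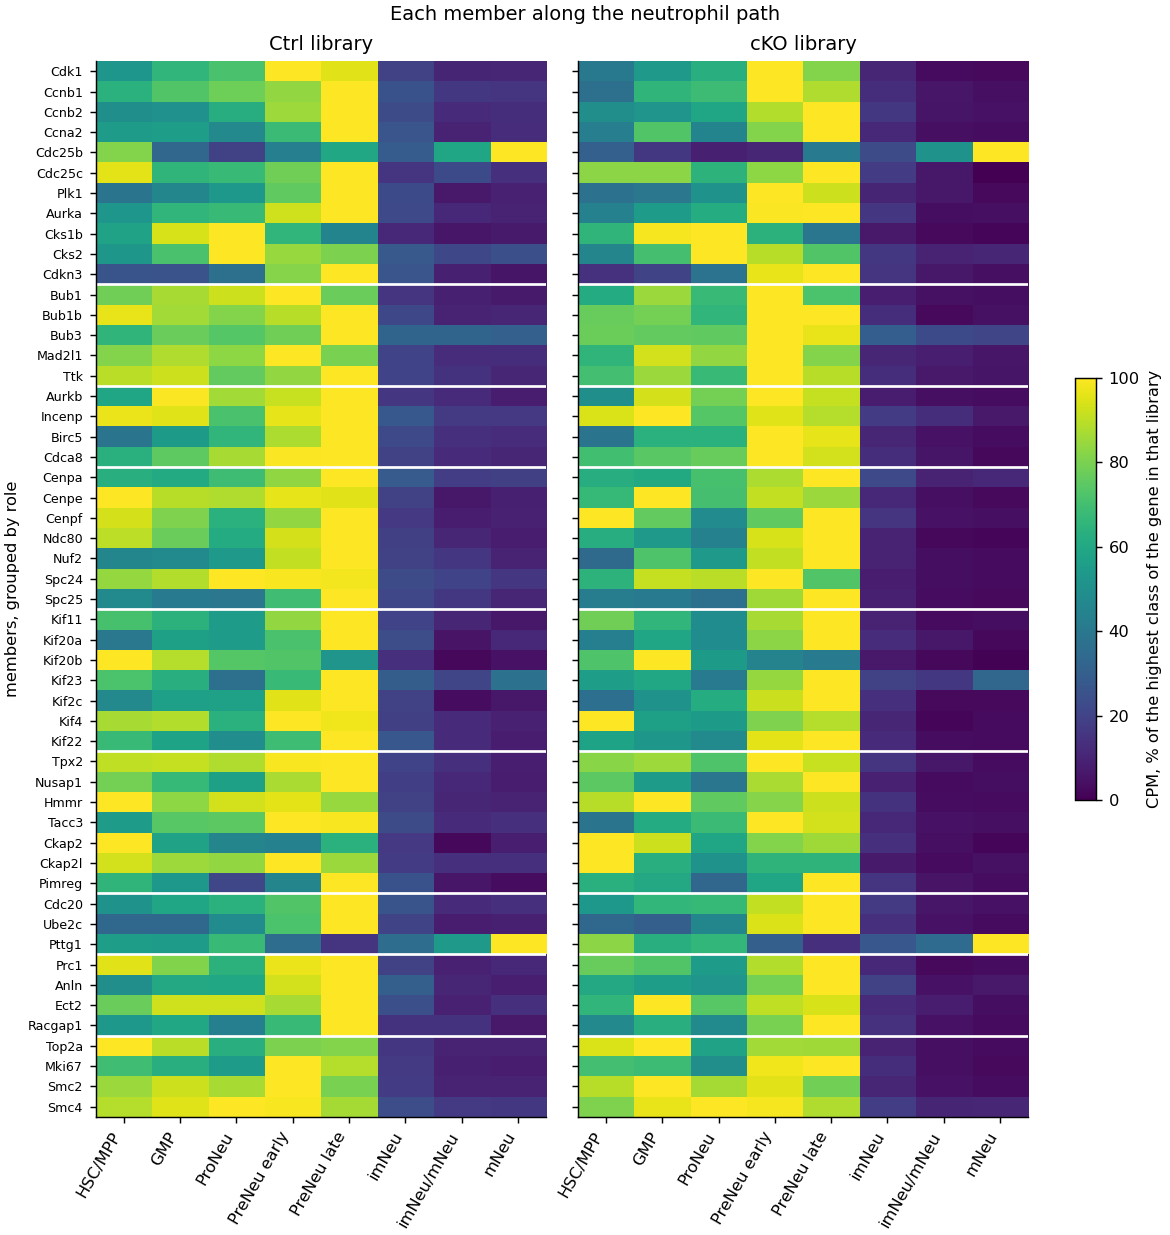
CPM of each of the 52 members (rows, grouped by role) in the 8 classes of the neutrophil path (columns), as a percent of its highest class in that library. Most rows are yellow (near their highest) in PreNeu and dark in imNeu and mNeu, while *Cdc25b* and *Pttg1* are highest in mNeu in both libraries.

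A pair of members ran against this pattern. *Pttg1*, securin, which holds the cohesin-cutting enzyme separase inactive, had 27.2 CPM in HSC/MPP and 33.0 in ProNeu of Ctrl. It was at 7.40 in late PreNeu and at 17.3 in imNeu and 48.5 (41.3 to 56.6, 160 UMIs) in mNeu. In cKO the same classes had 44.0, 35.2, 7.07, 14.4 and 53.2 (47.4 to 59.5, 308 UMIs). On this path it was thus lowest, in both libraries, in late PreNeu, where more members peaked than in any other path class. *Cdc25b*, a phosphatase that starts the activation of Cdk1, had 4.67 CPM in ProNeu, 14.5 in late PreNeu and 24.3 (19.2 to 30.2) in mNeu of Ctrl. In cKO it had 3.91, 18.4 and 44.6 (39.3 to 50.4). At 2000 UMIs per cell, 4.02% of Ctrl and 7.14% of cKO mNeu cells held a *Cdc25b* UMI, and 7.64% and 11.5% a *Pttg1* UMI. In T and NK cells *Cdc25b* was in 3.23% and 4.76% of cells and *Pttg1* in 12.9% and 9.52%, at 58.9 and 65.1 CPM. By CPM the *Pttg1* level in mNeu was thus not above that of T and NK cells. The cells' own part in either count was not tested, so no expression is read from the mNeu level. For *Cdc25b* the values of T and NK cells rest on 3 of 93 and 1 of 21 cells. Among Ctrl B cells *Cdc25b* was in 9.58%, at 36.0 CPM, above Ctrl mNeu, and among cKO B cells in 0 of 27. How much of the *Cdc25b* count in mNeu is the cells' own RNA was not tested.

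Smaller folds were also found for *Kif23*, a kinesin of the central spindle, at 107 CPM in late PreNeu and 39.7 in mNeu of Ctrl, and 77.1 and 25.4 in cKO. *Bub3*, a checkpoint protein that also works outside mitosis, had 160 and 49.1 CPM in Ctrl and 157 and 34.0 in cKO. *Cks2*, a small subunit of Cdk complexes, was 4.10-fold higher in ProNeu than in mNeu of Ctrl. *Cenpa*, the histone variant that marks centromeres, was 8.98-fold higher in late PreNeu than in mNeu of cKO.

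Along the neutrophil path, most of the genes that set off mitosis were highest in PreNeu. *Cdk1* had 91.9 CPM in HSC/MPP, 125 in ProNeu, 175 in early PreNeu and 167 in late PreNeu of Ctrl, then 33.8 in imNeu and 18.8 in mNeu. In cKO it had 88.0, 136, 217, 177, 23.3 and 5.53. *Ccna2*, cyclin A2, had 89.3 in HSC/MPP and 162 in late PreNeu of Ctrl, and 56.0 and 131 in cKO. The B-type cyclins *Ccnb1* and *Ccnb2* moved in parallel, from 49.2 and 78.0 CPM in HSC/MPP to 77.0 and 157 in late PreNeu of Ctrl.

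The *Cks* pair split. Along the path *Cks1b* was highest in ProNeu, at 259 CPM in Ctrl and 281 in cKO, and down to 116 and 110 in late PreNeu. *Cks2*, also highest in ProNeu at 422 and 483, was still at 338 and 352 in late PreNeu. *Cdkn3* went from 22.3 CPM in HSC/MPP to 86.2 in late PreNeu of Ctrl, and from 15.99 to 112 in cKO.

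*Mad2l1*, a core checkpoint protein, lay between 61.2 and 76.5 CPM from HSC/MPP to late PreNeu in Ctrl. The related checkpoint genes *Bub1* and *Bub1b* stood at 33.0 and 57.6 in HSC/MPP and 32.6 and 59.7 in late PreNeu. In the chromosomal passenger complex, which corrects attachments, *Birc5* (survivin) went from 85.4 to 222 CPM over the same classes of Ctrl and from 92.8 to 232 in cKO. *Cdca8* (borealin) went from 113 to 178 in Ctrl, and *Incenp*, the scaffold of the complex, went from 137 to 141.

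Among kinetochore genes, *Cenpf* had 174 CPM in HSC/MPP, 119 in ProNeu and 186 in late PreNeu of Ctrl, with 121, 58.4 and 121 in cKO. *Cenpe*, a kinetochore motor, had 142, 125 and 136 in Ctrl. *Kif11*, the motor that pushes spindle poles apart, had 124, 97.1 and 175 CPM in these classes. *Kif20b* ran the other way, from 103 in HSC/MPP to 53.9 in late PreNeu.

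*Nusap1* and *Tpx2*, which nucleate and bundle spindle microtubules, had 107 and 114 CPM in HSC/MPP and 135 and 126 in late PreNeu of Ctrl. *Hmmr*, which helps focus spindle poles, had 93.9 and 79.4. *Ube2c*, the ubiquitin-conjugating enzyme of the anaphase promoting complex, went from 152 CPM in HSC/MPP to 452 in late PreNeu of Ctrl and from 151 to 447 in cKO. Its coactivator *Cdc20* went from 58.6 to 114 and from 54.4 to 102.

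Of the cytokinesis genes, *Prc1*, which bundles the central spindle, had 117 and 123 CPM at the ends of this range in Ctrl. *Racgap1*, a partner of *Kif23* at the central spindle, had 60.8 and 114, and *Anln*, anillin of the contractile ring, 40.8 and 82.3. The proliferation marker *Mki67* had 842 CPM in early and 749 in late PreNeu of Ctrl, and 531 and 542 in cKO. Along the neutrophil path, topoisomerase *Top2a* was highest in HSC/MPP of Ctrl, at 622, with 506 in late PreNeu. The condensin subunits *Smc2* and *Smc4* stood at 190 and 348 in HSC/MPP and 178 and 339 in late PreNeu.

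In single PreNeu cells thinned to 2000 UMIs, *Mki67* was detected in 55.9% of Ctrl and 50% of cKO cells, and *Top2a* in 45.1% and 39.8%. *Ube2c* was detected in 36.0% and 36.6%, and the median member in 13.6% and 13.3%. The median member in mNeu was at 2.14% and 0.65%, and no member reached 25% of cells there in either library.

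The cKO over Ctrl ratio of the summed members differed by stage. The log2 ratio was -0.36 (-0.41 to -0.32) in HSC/MPP, -0.21 in GMP, -0.29 in ProNeu and -0.21 (-0.23 to -0.20) in PreNeu. It was -0.83 (-0.89 to -0.77) in imNeu and -1.19 (-1.26 to -1.11) in mNeu. These are ratios of CPM, and within a class the whole distribution of genes was shifted between the libraries, with the median of all tested genes at -0.11 in HSC/MPP, -0.27 in ProNeu, -0.40 in PreNeu, -0.46 in imNeu and -0.45 in mNeu. The median member stood at -0.47, -0.30, -0.21, -1.01 and -1.73. Members were thus below the median gene in HSC/MPP and imNeu, near it in ProNeu and above it in PreNeu. Scaled by the median of ratios over genes, the PreNeu sum changed direction, from -0.21 to +0.19, and ProNeu went to -0.020.

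Counted by a fixed size of 1.5-fold, with at least 20 UMIs over both libraries, 17 of 52 members were lower in cKO HSC/MPP, against 15.2% of all genes tested. In GMP 2 of 52 were lower against 16.7% of all genes. In ProNeu it was 10 of 52 against 20%, and in PreNeu 4 of 52 against 32.1%. In imNeu it was 41 of 52 against 39%. In mNeu 46 members had enough UMIs, and 42 of them were lower against 39.6%. Past 1.5-fold in the other direction, 1 member was higher in cKO HSC/MPP (7.07% of all genes), 1 in ProNeu (2.29%) and 1 in mNeu (3.51%). None was higher in GMP, PreNeu or imNeu, where 3.19%, 1.66% and 1.97% of all genes were. In ProMon, the monocyte-committed progenitors off this path, 14 of 52 were higher against 6.27%. Since 1 library stands for each genotype, these counts describe the libraries and not the effect of the deletion.

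**Figure D5:**
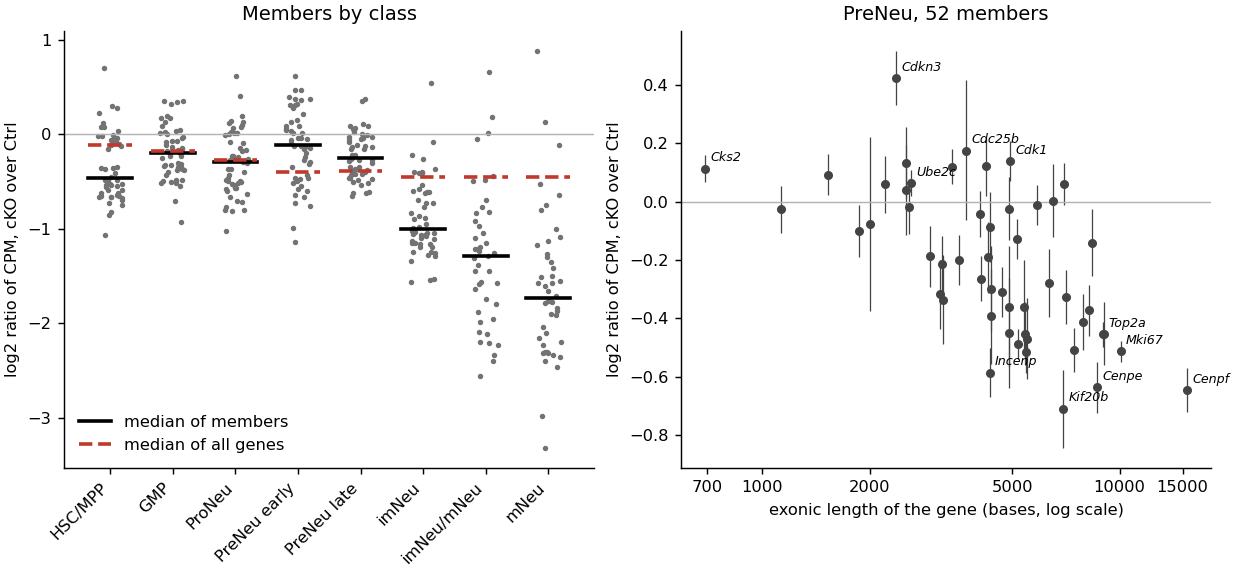
Left, log2 ratio of CPM, cKO over Ctrl (y axis), of each member in each class of the neutrophil path, with the median of members (black) and of all tested genes (red, dashed). Right, the PreNeu ratio of each member against its exonic length in bases (log scale), where the 26 shorter members have a median of -0.06 and the 26 longer of -0.39.

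In HSC/MPP the lowest ratios were those of *Cenpe* (142 to 68.0 CPM, log2 -1.06), *Ckap2*, a spindle-associated protein (-0.85), and *Kif23* (-0.82). *Pttg1* (27.2 to 44.0, +0.69), *Cks1b* (+0.30) and *Bub3* (+0.27) were the highest. This class had 328 Ctrl and 106 cKO cells. In GMP *Kif4*, a chromosome-bound kinesin (44.1 to 23.2 CPM, -0.93), *Cenpf* (-0.71) and *Kif23* (-0.55) were lowest, and *Birc5* (121 to 154, +0.35), the kinetochore genes *Spc24* (+0.35) and *Nuf2* (+0.34) highest. In ProNeu *Cenpf* (119 to 58.4 CPM, -1.03), *Cenpe* (-0.81) and *Hmmr* (-0.80) were lowest, and *Pimreg* (8.13 to 12.4, +0.61), *Cdkn3* (+0.41) and *Cks2* (+0.19) highest.

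In PreNeu the medians of the roles ran from +0.11 to -0.50, with members of different roles overlapping, and no difference between roles was tested. The median of all tested genes in PreNeu was -0.40. The role of entry kinases and cyclins has 11 members and also holds the *Cdc25* phosphatases, the *Cks* subunits and *Cdkn3*. Of these 11, 8 were above 0, with a median log2 ratio of +0.11. *Cdkn3* went from 82.6 to 111 CPM, a log2 ratio of +0.42 (0.33 to 0.51), and *Cdk1* from 169 to 186, +0.14 (0.07 to 0.21). *Cks2* (342 and 370 CPM) and *Cks1b* (129 and 126) had +0.11 and -0.03. *Ccnb1* (74.1 and 80.6) and *Ccnb2* (152 and 162) had +0.12 and +0.09. The 4 chromosome structure genes were all below 0, with a median of -0.50. All 4 are longer than the members' median exonic length of 4520 bases. Over all genes of at least that length the PreNeu median was -0.51, so the 4 lay near that background. *Mki67* went from 770 to 540 CPM (-0.51), *Top2a* from 504 to 368 (-0.45), *Smc2* from 189 to 132 (-0.51) and *Smc4* from 350 to 250 (-0.49).

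The other roles had medians of -0.41 for kinesins, -0.37 for cytokinesis, -0.31 for spindle assembly, -0.21 for the kinetochore, -0.19 for the checkpoint, -0.16 for the passenger complex and -0.08 for the anaphase promoting complex partners. *Kif20b* (58.7 to 35.9 CPM, -0.71), *Cenpf* (179 to 114, -0.65), *Cenpe* (136 to 87.5, -0.64) and *Incenp* (140 to 93.4, -0.59) were the members past 1.5-fold. *Bub1* (34.8 to 26.5, -0.39) had a lower ratio than its relative *Bub1b* (58.2 to 51.1, -0.19). *Cdc25b* had +0.17 (-0.06 to 0.41), an interval that includes 0. Also above 0 were *Ube2c* (423 and 442 CPM, +0.06), *Birc5* (+0.12) and *Aurka*, a spindle pole kinase (+0.13).

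Early and late PreNeu were not alike. In early PreNeu, where 7 of 52 members were lower past 1.5-fold against 34.8% of all genes, *Cdc25b* (10.4 to 4.75 CPM, -1.14), *Kif20b* (-0.99) and *Cenpf* (-0.76) were lowest. *Cdkn3* (+0.61), the mitotic kinase *Plk1* (67.9 to 93.6 CPM, +0.46) and *Ccnb1* (64.5 to 88.8, +0.46) were highest, the first of them the only one past 1.5-fold higher, as 2.01% of all genes were. In late PreNeu, with 4 of 52 lower against 30.8% and none higher against 1.7%, *Cenpe* (-0.65), *Incenp* (-0.62) and *Cenpf* (-0.62) were lowest and *Cdkn3* (+0.37), *Cdc25b* (+0.35) and *Aurka* (+0.11) highest. Early PreNeu cells had a median of 13103.5 UMIs in Ctrl and 6535.5 in cKO, late ones 7403 and 14954.

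The members' PreNeu ratios went with gene length. Exonic length (GENCODE vM21) ran from 692 to 15433 bases over the 52, and Spearman's correlation of length with the log2 ratio was -0.63 over the 52 members and -0.34 over 11050 genes. The 26 shorter members had a median of -0.06 and the 26 longer -0.39, and over all genes those below and above the median length stood at -0.26 and -0.51. In ProNeu the correlation was -0.62 over the members and -0.46 over all genes, and in imNeu -0.25 and -0.23. Genes of 1 library pair share their depth and capture, so these are descriptions. *Cks2*, with 692 bases, is the shortest member and *Cenpf*, with 15433, the longest. What part length or depth has in the order of the roles was not tested.

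In imNeu *Ccna2* (43.0 to 14.6 CPM, -1.56), the kinetochore gene *Spc25* (-1.54) and *Kif11* (35.6 to 12.3, -1.53) were lowest, and *Cdc25b* (+0.54), *Bub3* (51.8 and 48.9, -0.08) and *Pttg1* (-0.26) highest. In the cells between imNeu and mNeu 36 of 43 members were lower past 1.5-fold against 38.9% of all genes and 1 was higher against 3.05%, from *Spc25* at -2.56, *Kif11* at -2.33 and *Spc24* at -2.20 to *Cdc25b* at +0.65, *Cdkn3* at -0.05 and *Pttg1* at -0.48. In mNeu *Cenpe* (12.7 to 2.42 CPM, -2.40), *Cdca8* (-2.33) and *Mki67* (67.9 to 13.6, -2.32) were lowest. *Cdc25b* had +0.88 (0.51 to 1.26), *Pttg1* +0.13 (-0.15 to 0.42) and *Bub3* -0.53.

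Values beside these late ratios bear on free RNA. The primary granule genes *Mpo*, *Elane*, *Prtn3* and *Ctsg* took 0.125% of UMIs in Ctrl mNeu, 0.122% in B cells and 0.123% in T and NK cells. In cKO they took 0.0561%, 0.0579% and 0.0529%. In MEP they took 0.0878% and 0.0234%. As a share of UMIs, RNA of these granule genes was thus lower in cKO than in Ctrl in all 4 types. How much of it the cells make themselves was not tested. The cells were also deeper in cKO, with medians of 2272 and 5792 UMIs in mNeu and 2642.5 and 5445 in B cells. Medians were 3066 and 5978.5 in T and NK cells and 12413 and 24762 in MEP. A lower share is not a lower count per cell, and the part of depth was not tested. Without *Cdc25b* and *Pttg1* the members in mNeu took 0.0902% and 0.0331%, beside 0.125% and 0.0561% for the granule genes there. The part of free RNA in the late ratios was not tested. Member RNA in mNeu lay below that of T and NK cells of the same library, at 0.178% and 0.0683%, so no change of expression is read from the mNeu ratios. In imNeu, where the share of cells at 10 member UMIs differed little, the sum over cells and the mean over cells gave different values, -0.83 and -0.10. Its ratio was -2.30 when cells were clustered instead of gated. Of the cells in the Ctrl clusters named imNeu, 56.6% and 25.4% were also gated imNeu, against 79.9% in the cKO cluster.

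The rest of the mitotic machinery was taken from lists of other genes. In PreNeu none of the 17 other condensin and cohesin genes was above 0 and 8 were lower past 1.5-fold, with a median of -0.46. The median of all tested genes there was -0.40. Of 27 other kinetochore and centromere genes none passed, with a median of -0.28. Of 45 other motors, kinases and spindle genes found in the files 6 were lower and 0 higher, with a median of -0.31. Of the 17 subunits of the anaphase promoting complex and their regulators 1 was lower, with a median of -0.23 in PreNeu and -0.23 in mNeu. The DNA replication genes had a median of -0.34 in PreNeu, with 13 of 53 lower, and of -1.39 in imNeu, with 46 of 48 tested lower. The background for these counts in each class is that given for the members. No alternative was run for these lists, and in imNeu the summed member ratio ran from -2.30 to -0.10 over the alternatives.

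Among 21 transcription regulators of the cycle, 7 of 20 tested were lower past 1.5-fold in PreNeu, near the 32.1% of all genes, with a median of -0.47. *Foxm1*, which drives late cell cycle genes, had 51.3 CPM in Ctrl and 34.0 in cKO PreNeu (-0.59). *E2f1*, an activator of replication genes, had 31.9 and 18.0 (-0.83). *Mybl2*, a partner of the MuvB complex, had 28.5 and 21.3 (-0.42). *Nfya*, the DNA-binding subunit of NF-Y, had 39.6 and 27.0 (-0.55), and its partner *Nfyb* 74.9 and 63.9 (-0.23).

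Among the CDK inhibitors, *Cdkn2d*, which blocks the kinases Cdk4 and Cdk6, was somewhat higher in mNeu than in PreNeu. It had 184 CPM in PreNeu and 212 in mNeu of Ctrl, and 234 and 334 in cKO. Its log2 ratio was +0.35 (0.28 to 0.41) in PreNeu and +0.66 (0.53 to 0.78) in mNeu. Cells of mNeu had a median of 2272 UMIs in Ctrl and 5792 in cKO, and the part of depth in that ratio was not tested. Of the 7 inhibitors 4 had enough UMIs in PreNeu, and none passed 1.5-fold in either direction.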

How the data were processed

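The deposited matrices hold raw counts of unique molecular identifiers per gene and cell barcode, which the authors made with Cell Ranger 5.0.0 on mouse genome mm10 (GRCm38), 1 matrix per library. Barcodes were already called as cells. A cell was kept when 200 to 9000 genes were detected in it and mitochondrial genes made up no more than 30% of its UMIs. No doublet caller was run, and an alternative left out the 5% of cells with most UMIs.

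Classes came from the share of a cell's UMIs in lists of marker genes, none of them a member or a replication gene, in cells with at least 1000 UMIs. The gate thresholds were set after the marker shares had been seen. The erythroid marker Ahsp was not used here. UMIs were summed per class and library and divided by the class total (CPM), and no pseudocount was added. A ratio needed at least 20 UMIs over both libraries, and an extreme named per class at least 50. For shares of cells each cell was thinned once to 2000 UMIs. With 1 library per group no test was run and no p-value is given. The script was tested on simulated data.

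Named genes were, by rule, the 3 members of each role with most CPM, the 3 highest and 3 lowest ratios per class, the 5 smallest and 5 largest folds over mNeu, and the paralog pairs. Genes shown besides these, from the other lists or as further examples, were chosen after their values were seen. The 52 members, the roles and the lists were chosen with earlier results of these data known. Sequences are RefSeq promoters of GRCm38.p6. Exonic lengths are from GENCODE vM21, which held 32158 of the 32285 gene identifiers. Alternatives changed the depth floor, the mitochondrial limit, the classes (Leiden clusters on 2000 variable genes, without cell cycle genes), the denominator, the scaling, the thinning depth and the members counted.

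Python 3.11.15 was used with pandas 2.3.3, matplotlib 3.10.9, scipy 1.17.1, igraph 0.11.9, leidenalg 0.10.2, numpy 2.4.6 and scikit-learn 1.9.0.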

Additional observations from a re-analysis of the deposited data

Results flagged for a closer look

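The summed members were higher in cKO than in Ctrl in ProMon, the monocyte-committed progenitors, with a log2 ratio of +0.32, and lower in monocytes, with -0.46. ProMon took 0.632% of Ctrl and 0.789% of cKO UMIs for the members, on 137 and 52 cells, and monocytes 0.803% and 0.582%, on 452 and 222 cells. In ProMon 14 of 52 members were higher past 1.5-fold, against 6.27% of all genes, and 39.8% of Ctrl and 57.1% of cKO cells had 10 or more member UMIs of 2000. The difference between the classes was not tested.

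*Cdc25b* moved in opposite directions between classes, with a log2 ratio of -1.14 in early PreNeu, +0.35 in late PreNeu and +0.88 in mNeu. Its CPM in Ctrl and cKO were 10.4 and 4.75, 14.5 and 18.4, and 24.3 and 44.6. The difference between the classes was not tested.

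The cells that no gate placed held member UMIs too, at 0.589% in Ctrl and 0.458% in cKO, above the share in mNeu of the same library. They numbered 1683 and 1959, with a median of 831 and 823 UMIs.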

How the results depend on the processing

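No paired analysis was possible because each group has 1 library and no result comes from a test. The sign of the PreNeu ratio depends on the scaling. It was -0.21 by CPM and +0.19 by the median of ratios over genes within the class, which sets the median gene to 0. The same scaling gave -0.25 in HSC/MPP, -0.020 in ProNeu, -0.37 in imNeu and -0.74 in mNeu. Clustered instead of gated, ProNeu was at -0.35, PreNeu at -0.32 and imNeu at -2.30, and no cKO cluster was called HSC/MPP, so that class has no value there. The clusters named imNeu held partly other cells than the gate. A mean over cells gave -0.45 in HSC/MPP, -0.24 in ProNeu, -0.087 in PreNeu and -0.10 in imNeu. With mitochondrial and ribosomal protein genes out of the denominator HSC/MPP was at -0.24 and ProNeu at -0.22. Without the 5 members with most UMIs (Mki67, Top2a, Cks2, Smc4 and Ube2c) the values were -0.30, -0.25, -0.18 and, in mNeu, -1.06. Without the 5% of cells with most UMIs they were -0.27 in HSC/MPP, -0.20 in PreNeu and -0.91 in imNeu. At 2000 or more UMIs per cell imNeu was at -0.94 and mNeu at -1.04. The causes were not tested.

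The log2 ratio of PreNeu over mNeu, 2.81 in Ctrl and 3.78 in cKO, kept its direction under every alternative run. In Ctrl it was 2.98 at 2000 or more UMIs, 2.92 in clusters, 2.89 with the other denominator, 2.43 as a mean over cells and 2.66 without the deepest cells. In cKO the last 3 were 3.89, 3.51 and 3.66, and it was 3.67 without the 5 members.

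The share of PreNeu cells with member UMIs was 60.6% in Ctrl and 63.9% in cKO at 1000 UMIs, 88.2% and 89.96% without thinning, 91.5% and 83.5% at 1 UMI, and 49.3% and 50.1% at 10. In clusters it was 79.1% in Ctrl. Which library had the larger share thus depends on depth and floor. The number of members lower past 1.5-fold in PreNeu was 7 in clusters, against 32.5% of all genes, and 1 without the deepest cells, against 29%. By the median of ratios it was 0 against 11.1%, and 1 member was higher against 7.81%. The imNeu and mNeu values rest on few UMIs per member, and 47 and 30 members had 50 or more there.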

Other observations

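Outside the neutrophil path, the members took the largest share of UMIs in ProEry, the haemoglobin-making erythroid precursors, with 1.38% in Ctrl and 1.16% in cKO. The cKO value rests on 15 cells against 135. MEP, the megakaryocyte and erythroid progenitors, had 0.838% and 0.664% on 456 and 91 cells. ProB, the B cell precursors, had 1.02% and 0.605% on 499 and 12 cells. B cells had 0.373% and 0.0500% on 260 and 33 cells, and 11.4% of Ctrl B cells had 10 or more member UMIs of 2000, against 0 of 27 in cKO, which allows a share of up to 12.8% by its Clopper-Pearson interval. Plasma cells had 0.1504% and 0.0381% on 89 and 41 cells.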
